A study of Homo sapiens with 8 samples.

Results

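Aminoacyl-tRNA synthetases, the enzymes that load each tRNA with its amino acid, were followed through total and polysomal RNA of human cardiac fibroblasts in which the translation factor EIF4G2 was knocked down. The 38 genes are a named list, of which every gene has a row among the 59385 gene symbols of the count matrix. By their symbols, 22 are cytosolic (names ending in 1, the phenylalanyl subunits FARSA and FARSB, and the scaffold genes AIMP1, AIMP2 and EEF1E1) and 16 are mitochondrial (names ending in 2). A filter on low counts left 36 for testing, 21 cytosolic and 15 mitochondrial, among 16228 genes tested.

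The cells were the IHCF line, immortalized human cardiac fibroblasts, infected with a lentivirus carrying either a scramble shRNA or an shRNA against EIF4G2. All cells of every group were kept without serum for at least 6 hours and then given TGF-beta for 24 hours, so no library shows the cells without TGF-beta. From each kind of cell, total RNA and polysome-associated RNA were sequenced after polyA selection, which gives 4 groups of 2 libraries that the labels call biological replicates (the series' design text speaks of triplicates). No other hairpin and no rescue was among the libraries, and which polysome fractions were pooled is not given in the sources used here.

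Each synthetase recognises its amino acid and the matching tRNAs and joins them at the cost of ATP, and its product is carried to the ribosome by an elongation factor. Animal cells keep separate sets for the cytosol and for mitochondria, all encoded in the nucleus. The lysyl and glycyl enzymes, made by KARS1 and GARS1, serve both compartments from alternative forms of a shared gene. Several cytosolic enzymes sit in the multisynthetase complex, held together by the scaffolds AIMP1, AIMP2 and EEF1E1, and EPRS1 carries the glutamyl and prolyl activities in a shared chain. Many cytosolic synthetase genes are known targets of ATF4, the transcription factor of the integrated stress response, which binds C/EBP-ATF response elements (CARE). EIF4G2, also called DAP5, resembles the scaffold factor EIF4G1 but lacks its binding site for the cap-binding protein.

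The libraries held 18043714 to 24590030 counts, of which the cytosolic members took 0.320 to 0.326% in total RNA and 0.189 to 0.228% in polysomal RNA, and the mitochondrial members 0.0572 to 0.0620% and 0.0268 to 0.0311%. EIF4G2 stood at 793 and 784.5 CPM (counts scaled to library size, the unit of every level below) in scramble total RNA, 293.1 and 326.9 in knockdown total RNA, 874.6 and 876.3 in scramble polysomal RNA, and 243.8 and 334.3 in knockdown polysomal RNA. Every knockdown library thus lay below every scramble library. Its log2 fold change was -1.35 in total RNA, where edgeR's adjusted p of 0.0504 missed the threshold of 0.05 and DESeq2's was 4.05e-10, and -1.60 in polysomal RNA, where edgeR's adjusted p was 0.0276. That call held without the second knockdown polysome library (adjusted p = 0.0247) and was lost without any of the other 7 (0.07 to 0.239). Fibroblast markers summed to 5460 to 6920 CPM, mostly COL1A1 and VIM. Of the others on that list, COL1A2, THY1, COL3A1 and PDGFRB averaged 266, 235, 49.1 and 40.2 CPM in scramble total RNA. DCN, FAP, PDGFRA and LUM averaged only 0.25, 0.20, 1.56 and 2.12 CPM there. Cardiomyocyte markers summed to at most 1.15 CPM (MYH6 and MYH7 at 0 in all total libraries), leukocyte markers to at most 1.54 and endothelial markers to at most 14.9. Epithelial markers summed to 1160 to 3200 CPM, nearly all KRT8 and KRT18, and mural markers to 183 to 224 CPM in total and 21.9 to 28.7 in polysomal RNA. Transcripts encoded by the mitochondrial genome took 7.12% of the first scramble polysome library and 14.5 to 17.6% of the other polysome libraries, and the first knockdown total library had the shortest median transcript per count, 2717 nt against 2971 to 3025 nt in the other total libraries. Their part in the results was not tested.

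Promoter sequences from RefSeq (GRCh38.p14, 250 bases before to 50 after the start) were at hand for 19 of the 22 cytosolic and 14 of the 16 mitochondrial genes. A match to CARE, written TGATGNAA and searched on both strands, was found in 6 cytosolic promoters and in 1 mitochondrial promoter, that of YARS2, against 3.67% of 27305 promoters of the same length. The 30 bases around each match are printed to show the element through which ATF4 is known to act. Each runs 5′ to 3′ along the strand of its gene, and the capitals mark the match.
AARS1, chr16:70289675-70289704, minus strand: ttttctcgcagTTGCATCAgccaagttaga
CARS1, chr11:3057407-3057436, minus strand: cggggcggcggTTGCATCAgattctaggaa
IARS1, chr9:92293692-92293721, minus strand: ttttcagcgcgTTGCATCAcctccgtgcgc
MARS1, chr12:57488053-57488082, plus strand: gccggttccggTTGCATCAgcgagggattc
NARS1, chr18:57621804-57621833, minus strand: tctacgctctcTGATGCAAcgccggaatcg
TARS1, chr5:33440956-33440985, plus strand: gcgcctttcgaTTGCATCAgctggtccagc
YARS2, chr12:32756076-32756105, minus strand: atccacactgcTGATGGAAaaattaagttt

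All 6 cytosolic matches read TGATGCAA or its reverse complement TTGCATCA, and the YARS2 match differs from them in its variable base. In CARS1, IARS1, MARS1, NARS1 and TARS1 the match began between 13 bases before and 15 bases after the start. In AARS1 and YARS2 it began 187 and 197 bases before the start. The start used is that of the promoter record, and for TARS1 the annotated gene begins upstream of it, at chr5:33440696. Of the other motifs searched, the CRE core TGACGTCA, in 1.98% of all promoters, was found in that of AIMP2 alone among the members and the ETS core CCGGAAG, in 10.7% of all, in members of both classes. A match is a stretch of letters and not a measured binding site.

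VARS1 and VARS2, the valyl enzymes of the cytosol and mitochondria, could not be tested. VARS2 had no count in any library and VARS1 had 0 to 0.424 CPM. Both lie on chromosome 6 in the major histocompatibility region, where other genes were also listed at or near 0: 53 of 60 protein-coding genes within 500 kb of VARS1 and 21 of 31 within 500 kb of VARS2 had under 10 counts over the total libraries, and the tubulin gene TUBB had 0 to 3 counts per library. Neither value can therefore be read as missing expression. The elongation factor subunit EEF1G was likewise at 0 in every library but 1, where it had 0.255 CPM. CARS1, the cytosolic cysteinyl enzyme, was counted at 3.40 to 7.63 CPM in all libraries, and whether its counts were lost in the same way was not tested.

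At the median, cytosolic synthetase mRNAs were counted higher than mitochondrial ones. Per kilobase of coding sequence, the median cytosolic gene stood at 52.8 and 52.6 CPM in the scramble total libraries and the median mitochondrial gene at 13.7 and 13.3. NARS1 (asparaginyl) was highest with a mean of 91.8 CPM per coding kb, followed by TARS1 (threonyl) at 76.1, KARS1 at 74.2, SARS1 (seryl) at 72.6 and WARS1 (tryptophanyl) at 72.5. Neighbours among the last 4 overlapped in their library values or lay within a few units of each other, so their order is not firm. The divisor leaves out untranslated stretches, which also give counts, so it raises genes in which these are long. NARS1 has 1644 coding nt in a transcript of 3099 nt and WARS1 1413 in 3092, against 2268 in 2523 for TARS1. The order, with NARS1 first, therefore depends on the divisor, and levels per whole transcript were not computed. Among mitochondrial genes, IARS2 (isoleucyl) led with 32.7 CPM per coding kb and CARS2 (cysteinyl) followed with 29.5, while MARS2 (methionyl, 4.41), PARS2 (prolyl, 3.18) and SARS2 (seryl, 2.48) closed the order. The cytosolic gene exceeded its mitochondrial counterpart by 1.34-fold for isoleucine, 4.01-fold for alanine, 12.3-fold for methionine and 29.2-fold for serine. Cysteine was the exception, with CARS1 counted at 0.0513 times CARS2. Whether counts of CARS1 were lost was not tested, so this ratio cannot be read as a difference in expression. The complex itself was uneven: its enzymes ran from 36.7 CPM per coding kb for EPRS1 to 74.2 for KARS1. By this measure NARS1, a free enzyme, lay above all of them.

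**Figure D1:**
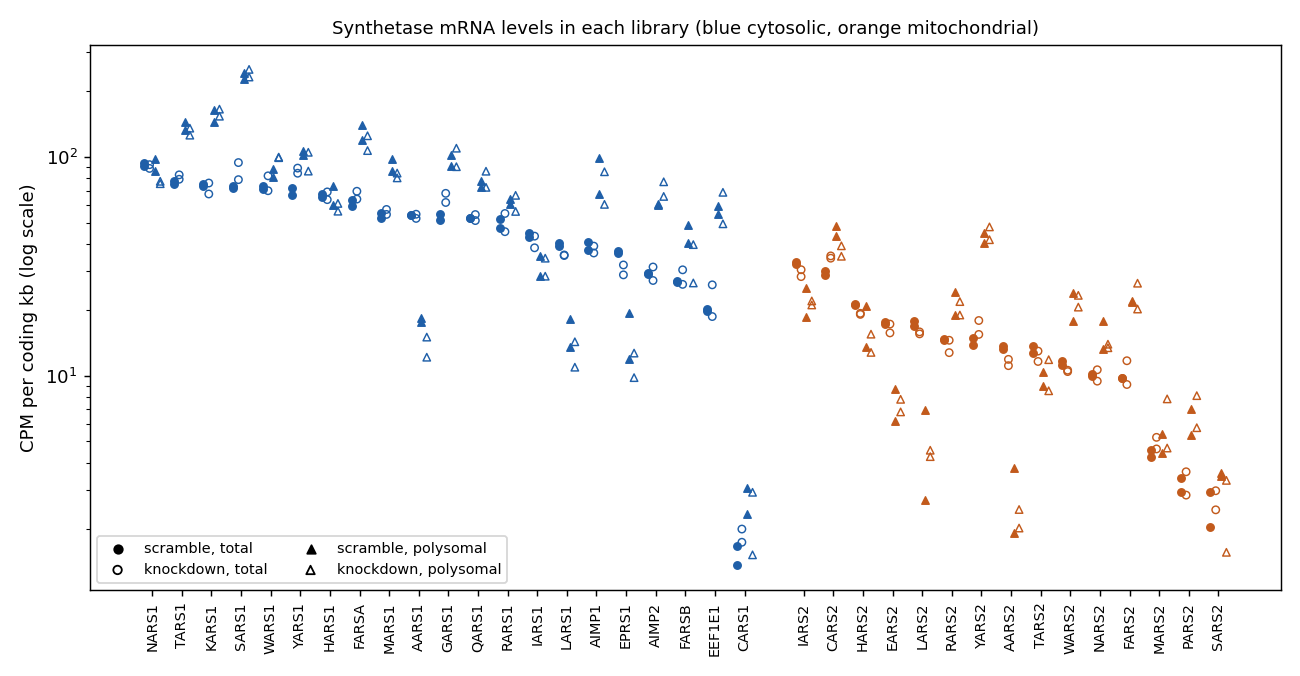
CPM per kilobase of coding sequence (log axis) of the 36 tested genes in each of the 8 libraries, ordered by the scramble total level within the cytosolic (blue) and mitochondrial (orange) classes. Circles are total and triangles polysomal libraries, filled for scramble and open for knockdown. Open and filled symbols of a kind lie close together for most genes, while triangles leave circles far below for AARS1, LARS1, EPRS1, AARS2 and LARS2.

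Between fractions the synthetases split widely. In scramble cells, polysomal against total RNA, 19 of 36 members were higher and 8 lower by edgeR's quasi-likelihood test at an adjusted p under 0.05 after TMM scaling, against 29.7% higher and 33.7% lower among all tested genes. The median log2 fold change was 0.73 for cytosolic and 0.50 for mitochondrial members, against -0.17 over all tested genes. These signs depend on the scaling. Ribosomal protein mRNAs took 11.6 to 16.3% of the polysome counts against 3.84 to 5.08% of the total counts. When only library totals were used, 2 members were higher and 18 lower (13.2% and 54.5% of all genes), with medians of -0.27, -0.50 and, over all genes, -1.16. The change of scaling moves all genes by nearly the same amount, so a member's distance from the median gene is the same by construction: 26 of 36 members lay above that gene, and the median member lay 0.74 above it on the log2 scale. Of the 27 members called after TMM scaling, 10 had the same call with library totals, namely SARS1 and YARS2 higher and 8 named below lower. A further 14 were not called, and CARS2, QARS1 and YARS1 were called in the opposite direction, at -0.37, -0.49 and -0.41.

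Within the multisynthetase complex, the scaffold EEF1E1 had 10.5 and 10.3 CPM in scramble total RNA and 28.5 and 30.9 in scramble polysomal RNA. The scaffold AIMP1 had 37.8 and 41.3 CPM against 68.4 and 99.9. For both, the polysomal libraries lay above the total ones, with log2 fold changes of 1.52 ± 0.23 (SE, edgeR adjusted p = 0.000144) and 1.09 ± 0.21 (adjusted p = 0.000967) after TMM scaling, which fell to 0.52 and 0.08 and missed the threshold with library totals only. The largest enzymes of the complex went the other way. EPRS1 (chr1:219968600-220046505) had 167.7 and 164.9 CPM in total and 87.6 and 54.3 in polysomal RNA. LARS1, the leucyl enzyme, had 138.7 and 143 CPM in total and 64.3 and 47.8 in polysomal RNA. Neither gene's fractions overlapped, and the log2 fold changes were -1.23 ± 0.22 (adjusted p = 0.000484) and -1.33 ± 0.18 (adjusted p = 7.29e-05). IARS1, the isoleucyl enzyme, stood at -0.46 ± 0.16 (adjusted p = 0.0274), a call lost without either scramble total library or the second scramble polysome library (adjusted p of 0.14, 0.0954 and 0.107). KARS1, AIMP2, MARS1 and QARS1 were called higher after TMM scaling, at 1.05, 1.05, 0.77 and 0.51, and RARS1 at 0.33 missed the threshold. The call of QARS1, the glutaminyl enzyme, was lost without either scramble total library (adjusted p of 0.0779 and 0.074) and without a filter on low counts (0.111).

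Among the free cytosolic enzymes, SARS1 (chr1:109213893-109238182) had 118.1 and 115.3 CPM in scramble total RNA and 389.9 and 365.1 in scramble polysomal RNA. AARS1, the alanyl enzyme (chr16:70252298-70289506), had 156.5 and 157.3 CPM in total and 53.2 and 50.9 in polysomal RNA. The 2 libraries of each group lay close together and the fractions far apart, in opposite directions for the 2 genes. The log2 fold change was 1.69 ± 0.15 (edgeR adjusted p = 4.12e-06) for SARS1 and -1.59 ± 0.15 (adjusted p = 5.27e-06) for AARS1. FARSA, the catalytic phenylalanyl subunit, stood at 1.08 and its partner subunit FARSB at 0.73. TARS1, GARS1 and YARS1 (tyrosyl) were at 0.86, 0.86 and 0.59, all called after TMM scaling. The call of FARSB was lost without the second scramble polysome library (adjusted p = 0.0673) and that of YARS1 without the first scramble total library (0.0674). HARS1 (histidyl) and NARS1 lay at 0.01 each and WARS1 at 0.22, none past the threshold.

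The mitochondrial enzymes spanned a still wider range. YARS2, the tyrosyl enzyme (chr12:32746544-32755897), had 21.2 and 19.8 CPM in scramble total RNA and 57.9 and 64.1 in polysomal RNA. AARS2, the alanyl enzyme (chr6:44298731-44313347), had 40.5 and 39.2 CPM in total and 5.63 and 11.2 in polysomal RNA. LARS2, the leucyl enzyme, had 45.7 and 47.9 CPM in total and 7.31 and 18.9 in polysomal RNA. YARS2 was thus high in both polysomal libraries, and AARS2 and LARS2 low in both, though their polysomal libraries differed from each other. The log2 fold changes were 1.58 ± 0.16 (edgeR adjusted p = 9.01e-06) for YARS2, -2.25 ± 0.27 (adjusted p = 3.35e-05) for AARS2 and -1.84 ± 0.32 (adjusted p = 0.000498) for LARS2. EARS2 (glutamyl, -1.23) and IARS2 (-0.59) were also called lower. FARS2 (phenylalanyl, 1.16), PARS2 (0.97), WARS2 (tryptophanyl, 0.86), CARS2 (0.63), NARS2 (asparaginyl, 0.63) and RARS2 (arginyl, 0.56) were called higher after TMM scaling. With library totals FARS2 fell to 0.16 and PARS2 to -0.027, and the call of PARS2 was also lost without either scramble total library or without the first scramble polysome library (0.68 to 1.07). NARS2 and RARS2 kept their call in 10 of 14 other fits that scaled the libraries by composition. Both lost it without either scramble total library and without a filter on low counts, NARS2 also without the second and RARS2 also without the first scramble polysome library, with adjusted p up to 0.132 and 0.198. IARS2 lost its call without the second scramble total library (adjusted p = 0.0548). Behind these calls, EARS2 had 27.6 and 28.3 CPM in scramble total and 9.91 and 13.9 in polysomal RNA, FARS2 13.2 and 13.3 against 29.4 and 29.8, and PARS2 4.21 and 4.85 against 10.0 and 7.66. The fractions did not overlap for any of the 3, and PARS2 rested on the fewest counts.

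**Figure D2:**
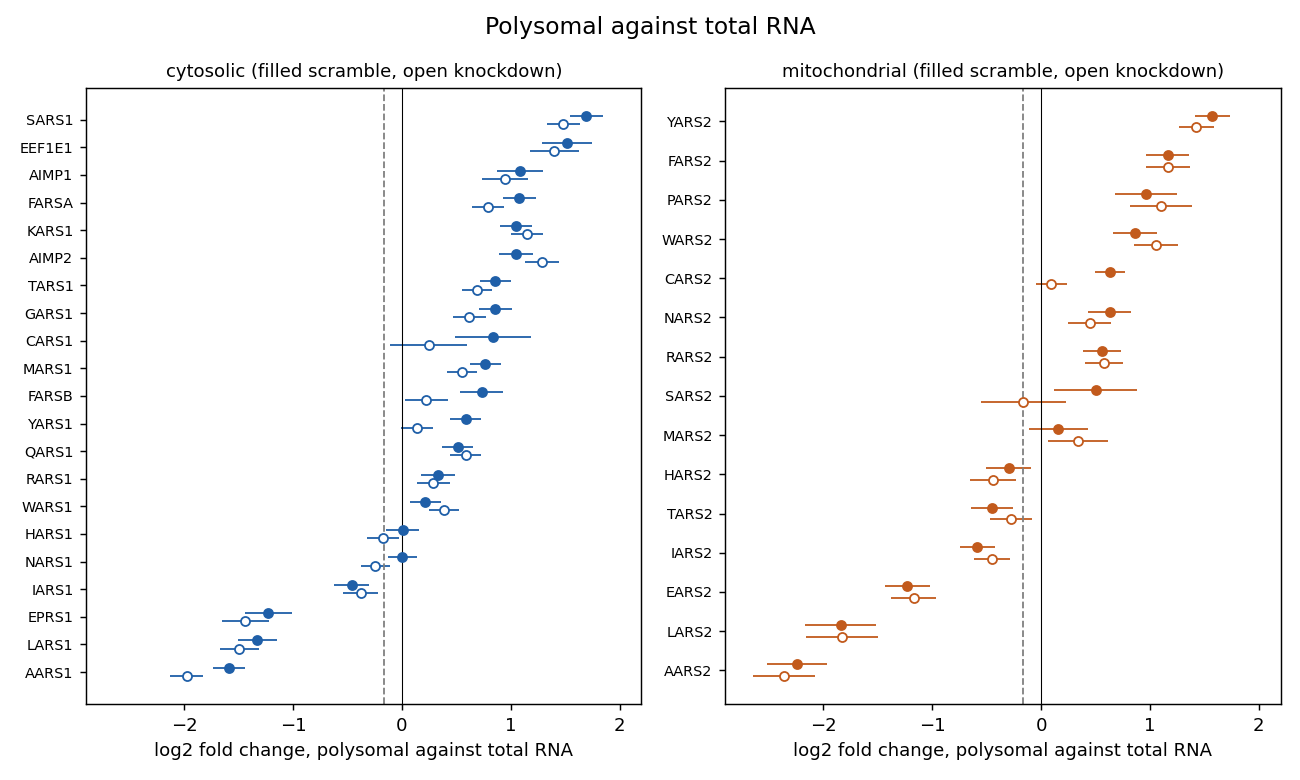
Log2 fold change of polysomal against total RNA after TMM scaling for the 21 cytosolic (left) and 15 mitochondrial (right) genes, with standard errors, filled for scramble and open for knockdown cells. The dashed line is the median of all tested genes in scramble cells (-0.17), and with library totals only that median moves to -1.16 and all points move left with it. SARS1 and YARS2 stand at the top and AARS1 and AARS2 at the bottom in both kinds of cell.

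Long transcripts were low in the polysomal libraries across the transcriptome, and the synthetases followed that slope. Across 12927 genes with an annotated length, the fold change of polysomal against total RNA in scramble cells correlated with log2 transcript length at a Pearson's r of -0.551. Across the 36 members r was -0.637, across the cytosolic ones -0.746 and across the mitochondrial ones -0.615. These are descriptions over genes that share the same 4 libraries. The transcripts of LARS2 (4744 nt), LARS1 (4766 nt) and EPRS1 (5014 nt) are the longest of the tested members and those of EEF1E1 (1077 nt) and AIMP2 (1225 nt) the shortest.

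After a smooth trend on length over all genes was removed, the cytosolic members lay at a median of 0.69, with 16 of 21 above 0, the mitochondrial ones at 0.021, with 8 of 15 above 0, and all genes at 0.13. EPRS1 and LARS1 then lay at -0.08 and -0.25, close to genes of their length, and EEF1E1 at 0.15. The alanyl pair remained low for its length, at -1.03 for AARS1 and -1.50 for AARS2. FARSB (1.24), YARS2 (1.23) and SARS1 (1.15) remained high. EARS2 was the lowest of all at -1.94, from an annotated model of 1709 nt, and 1 model was used per gene, so a longer form in these cells would change this value.

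**Figure D3:**
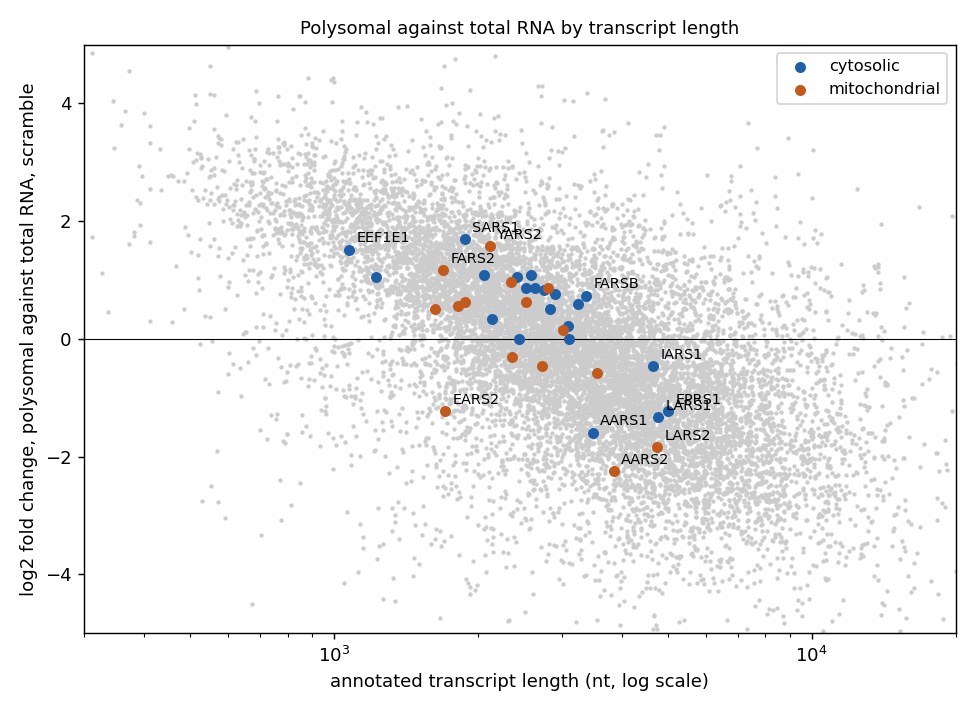
Log2 fold change of polysomal against total RNA in scramble cells after TMM scaling against annotated transcript length (nt, log axis) for all genes with a length (grey, values beyond 5 in either direction not drawn) and for the cytosolic (blue) and mitochondrial (orange) members. The members run down the same slope as the grey cloud (r of -0.637 and -0.551), with EARS2, AARS1 and AARS2 on its low side for their length.

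Enzymes for the same amino acid mostly lay on the same side of 0 in the cytosol and the mitochondrion. In scramble cells, after TMM scaling, 10 of the 12 amino acids with 1 cytosolic and 1 mitochondrial gene had fold changes of polysomal against total RNA of the same sign, with a Pearson's r of 0.767 and a Spearman's rho of 0.476 over the 12 pairs. Alanine (-1.59 and -2.25), leucine (-1.33 and -1.84) and isoleucine (-0.46 and -0.59) lay below 0 in both compartments, and tyrosine (0.59 and 1.58), cysteine (0.84 and 0.63) and serine (1.69 and 0.50) above 0 in both. Of these, CARS1 and SARS2 had few counts and did not pass the threshold between fractions in scramble cells. Threonine differed, at 0.86 for TARS1 and -0.45 for TARS2. The members of a pair also share their transcript length (r of 0.845 between log2 lengths over the same 12 pairs), and their libraries are the same.

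The split between fractions was found in knockdown cells too. There 16 of 36 members were higher and 7 lower in polysomal RNA (28.9% and 34.1% of all tested genes), with medians of 0.39 for cytosolic, 0.09 for mitochondrial and -0.16 for all genes. With library totals only the counts were 2 higher and 25 lower (11.0% and 56.8% of all genes), and GARS1, MARS1, QARS1, RARS2, TARS1 and WARS1 passed from called higher to called lower. The call of WARS1 was lost without any library but the first knockdown total one, and that of IARS2 without any 1 of the 4 total libraries. PARS2 lost its call without the second knockdown total or the first knockdown polysome library, RARS2 without the second library of either knockdown group, and GARS1 without the first knockdown polysome library (adjusted p = 0.0585). Without a filter on low counts MARS1, QARS1, RARS2 and WARS1 were not called. Among the members, calls in the same direction in both kinds of cell numbered 15 higher and 7 lower. The matching share of all tested genes was not computed, so these counts do not set the members apart. CARS2, FARSB, NARS2 and YARS1 were called higher in scramble cells only and IARS1 lower in scramble cells only, while WARS1 was called higher in knockdown cells only (0.39), but the difference between the kinds of cell passed the threshold for none of these 6. SARS1 had 151.3 and 126.4 CPM in knockdown total and 403.2 and 372.2 in knockdown polysomal RNA. YARS2 had 25.6 and 22.1 against 59.8 and 68.4, FARS2 15.8 and 12.3 against 35.8 and 27.2, and PARS2 5.18 and 4.05 against 11.5 and 8.23. All 4 genes again had both polysomal libraries above both total libraries, as EEF1E1 (13.6 and 9.72 against 25.8 and 35.9 CPM) and AIMP1 (39.4 and 36.6 against 61.1 and 86.1 CPM) did. The genes low on polysomes kept their place: AARS1 had 151.8 and 158.6 CPM in knockdown total and 43.5 and 35.2 in knockdown polysomal RNA, LARS1 124.8 and 125.5 against 50.3 and 38.5, and EPRS1 130.9 and 145.3 against 57.5 and 44.4. AARS2 had 32.8 and 35.0 against 7.22 and 5.94 CPM, LARS2 42.0 and 42.9 against 12.4 and 11.5, and EARS2 25.1 and 27.5 against 10.9 and 12.5. The knockdown fold changes of polysomal against total RNA ranged from 1.48 for SARS1 down to -1.98 for AARS1 among cytosolic and from 1.43 for YARS2 down to -2.36 for AARS2 among mitochondrial members. Without the second knockdown polysome library, 18 of 36 members lay above 0 in place of 23.

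After EIF4G2 knockdown no synthetase mRNA passed the test in total RNA. By edgeR 0 of 36 members passed the threshold and 0 had an unadjusted p under 0.05 (0 and 3.68% of all tested genes), and by DESeq2 0 passed (0.160% of all). Log2 fold changes of knockdown against scramble ran from -0.27 for EPRS1 to 0.32 for YARS1, with medians of 0.02 for cytosolic, -0.09 for mitochondrial and 0.02 for all genes, and 18 members on either side of 0. The 95% interval of 25 of the 36 members lay within a 1.5-fold change in either direction, and that of 35 within a 2-fold change.

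YARS1 had 105.8 and 113.6 CPM in scramble and 140.6 and 133.2 in knockdown total RNA. GARS1 had 121.3 and 114 CPM in scramble and 150.9 and 137 in knockdown. In both genes the knockdown libraries lay above the scramble ones, at log2 fold changes of 0.32 ± 0.15 (edgeR unadjusted p = 0.0509, adjusted p = 1) and 0.29 ± 0.15 (unadjusted p = 0.0821, adjusted p = 1). SARS1 (0.25), CARS2 (0.24) and YARS2 (0.22) followed, CARS1 stood at 0.30 ± 0.34 on few counts, and IARS2, with 98.5 and 100 CPM in scramble and 92.5 and 86.0 in knockdown total RNA, at -0.15. In total RNA the libraries of the groups did not overlap for 18 of 36 members, against 47.9% of all tested genes. By class, 6 cytosolic genes had both knockdown libraries higher and 2 had both lower, against 3 and 7 mitochondrial genes (24.8% and 23.1% of all genes). AARS2, EARS2, HARS2, IARS2, LARS2, RARS2 and WARS2 were the mitochondrial genes with both knockdown libraries lower, with values between -0.23 and -0.09, each smaller than its standard error.

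In polysomal RNA the members again stayed below the threshold. By edgeR 0 of 36 were called (0.0123% of all tested genes) and by DESeq2 0 (1.40%), and 1 had an unadjusted p under 0.05 by edgeR (13.3% of all genes). That gene was AARS1, with 53.2 and 50.9 CPM in scramble and 43.5 and 35.2 in knockdown polysomal RNA, both knockdown libraries below both scramble libraries. Its log2 fold change was -0.40 ± 0.15 (edgeR unadjusted p = 0.021, adjusted p = 0.297). In total RNA its 4 libraries lay between 151.8 and 158.6 CPM, those of FARSB between 46.1 and 53.8 and those of HARS2 between 29.3 and 32.7, while SARS2 had 3.17 to 4.64.

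FARSB had 71.4 and 86.5 CPM in scramble polysomal RNA and 46.8 and 70.1 in knockdown, without overlap, and a log2 fold change of -0.43 ± 0.20 (edgeR adjusted p = 0.379). EPRS1 had 87.6 and 54.3 against 57.5 and 44.4 CPM, with overlap, and -0.48 ± 0.22 (adjusted p = 0.38). CARS2, SARS2 and HARS2 stood at -0.30, -0.54 and -0.29. SARS2 had 5.58 and 5.40 against 2.43 and 5.18 CPM, without overlap. HARS2 had 32.1 and 20.8 against 23.8 and 19.6 CPM, with overlap, and lost its direction without the first scramble polysome library (0.035). In all, 13 members lay above 0 and 23 below, with medians of -0.12 for cytosolic, -0.03 for mitochondrial and -0.01 for all genes. WARS1 and AIMP2, each at 0.24, had both knockdown libraries above both scramble libraries. Groups did not overlap for 8 of 36 members in polysomal RNA, against 34.0% of all tested genes.

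The polysome-to-total ratio compares a message's scaled polysomal level with its scaled total level, and asks whether this differed between knockdown and scramble cells. It is tested as the interaction of fraction and shRNA. Both levels are relative to other genes, so a change in polysome loading shared by most genes is not measured. By edgeR 0 of 36 members and 0 genes in all were called (0%), by DESeq2 0 members (0.0246% of all tested genes), and 1 member had an unadjusted p under 0.05 by edgeR (6.27% of all). That member was CARS2, the mitochondrial cysteinyl enzyme (chr13:110641410-110713522). It had 51.0 and 48.7 CPM in scramble and 59.6 and 58.2 in knockdown total RNA. In polysomal RNA it had 73.2 and 81.6 in scramble and 59.4 and 66.3 in knockdown. Knockdown libraries lay above scramble libraries in total RNA and below them in polysomal RNA, and CARS2 was the only one of the 36 whose groups did not overlap in either fraction. Its log2 ratio changed by -0.54 ± 0.20 (edgeR unadjusted p = 0.0203, adjusted p = 0.776), with values from -0.67 to -0.47 and adjusted p from 0.186 to 1 over 14 ways of fitting.

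By unadjusted p the next members were YARS1 (-0.44 ± 0.21), AARS1 (-0.39 ± 0.21) and FARSB (-0.51 ± 0.28), with edgeR adjusted p of 0.776 each. YARS1 had 161.5 and 167.6 CPM in scramble and 136.2 and 166 in knockdown polysomal RNA, against the higher knockdown values in total RNA given above. SARS2 stood at -0.67 ± 0.54 and CARS1 at -0.59 ± 0.49, the lowest values of the 2 classes, both on few counts. WARS2, with 12.0 and 12.6 against 11.3 and 11.4 CPM in total and 19.2 and 25.7 against 22.2 and 25.1 in polysomal RNA, stood at 0.19 ± 0.28, which reached -0.0023 without the first scramble polysome library. By class, 16 of 21 cytosolic members lay below 0 with a median of -0.18, against 6 of 15 mitochondrial members with a median of 0.01. Of all tested genes 44.1% lay above 0, with a median of -0.07. With the length trend removed, both class medians and that of all genes were higher, and the cytosolic median stayed below the mitochondrial one. The cytosolic median was then -0.036, with 14 of 21 below 0, and the mitochondrial 0.19, with 4 of 15 below 0. That of all genes was 0.058. Without that correction, the free cytosolic enzymes gave most of the values below 0, with 10 of 11 below 0 and a median of -0.25, and WARS1 alone above 0. The multisynthetase complex had 6 of 10 below 0 and a median of -0.08. Intervals were wider here, the median standard error being 0.24 against 0.17 within a fraction, and the 95% interval of 4 of 36 members lay within a 1.5-fold change.

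**Figure D4:**
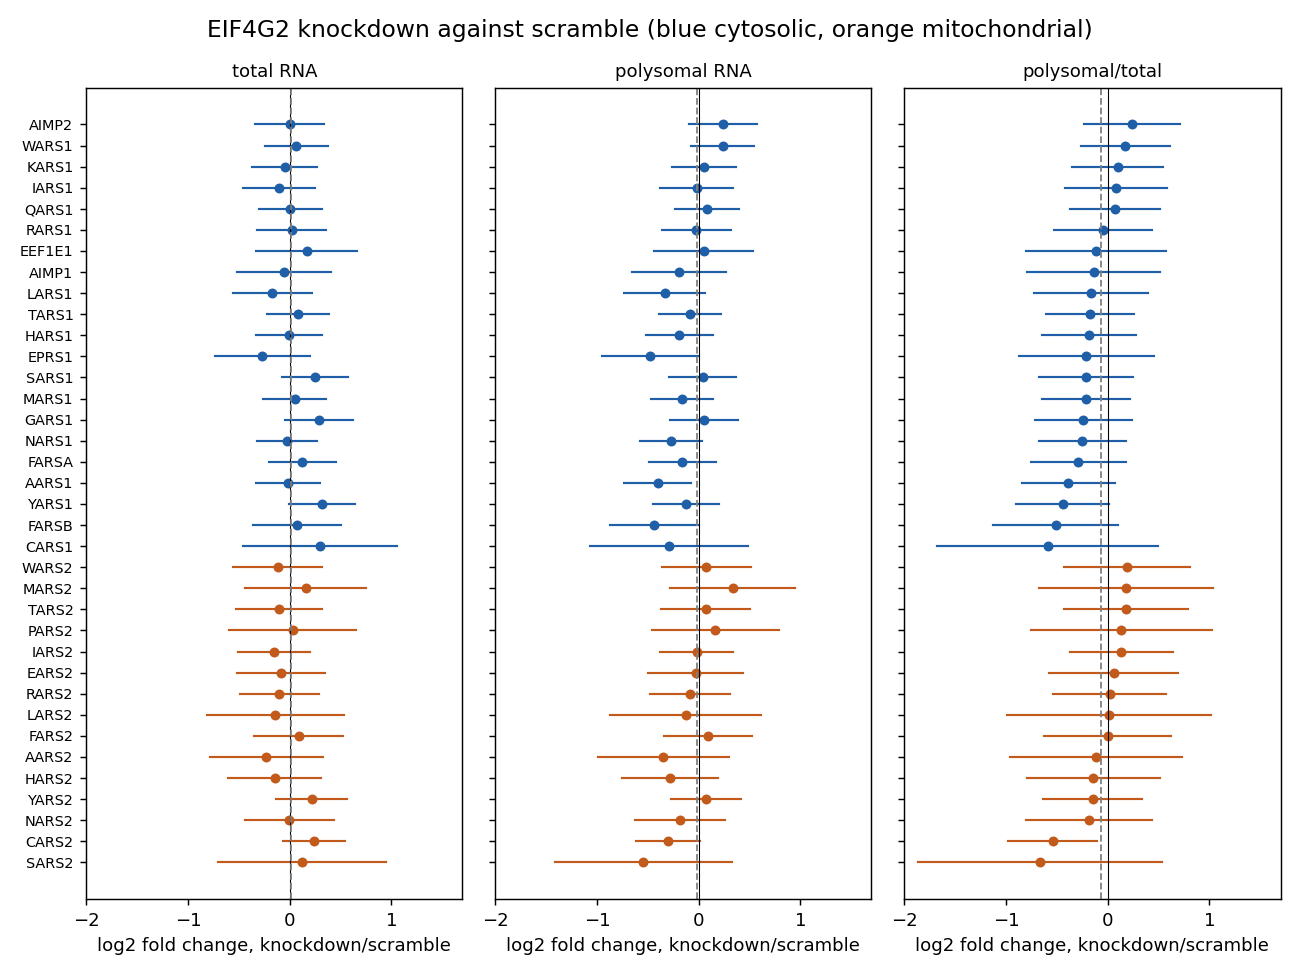
Log2 fold change of knockdown against scramble with 95% intervals for each tested gene in the 2 fractions and in their ratio, cytosolic in blue and mitochondrial in orange, ordered by the ratio within each class. The dashed line is the median of all tested genes. All intervals cross 0 but those of AARS1 in polysomal RNA and CARS2 in the ratio, at unadjusted p of 0.021 and 0.0203 by edgeR.

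ATF4 is made from an mRNA whose translation rises under stress, and a list of 30 genes outside the family was set beside the synthetases: ATF4 itself and 29 genes known as its targets, for amino acid transport, serine and one-carbon metabolism and stress signalling. It had 26 of 30 above 0 in knockdown against scramble total RNA, against 52.8% of all tested genes. The median log2 fold change was 0.28 against 0.02 for all genes. Against the scramble mean, the list's median was 0.37 in the first knockdown total library and 0.23 in the second. No correction for transcript length was made for this list. By edgeR 0 of the 30 passed the threshold, and 8 had an unadjusted p under 0.05, all higher (2.66% of all genes). DESeq2 called 0 of the 30. ASNS, the asparagine synthetase, had only 4 to 22 counts per library. Without ATF4 and ASNS, 24 of 28 genes lay above 0 with a median of 0.28, and 7 had an unadjusted p under 0.05. Of the 12 synthetases known as ATF4 targets, 7 lay above 0, with a median of 0.06. Of the members with a CARE match 4 of 7 lay above 0, with a median of 0.05.

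CHAC1, which degrades glutathione, had 3.34 and 4.70 CPM in scramble and 7.53 and 7.61 in knockdown total RNA, a log2 fold change of 0.92 ± 0.22 (edgeR adjusted p = 0.775). SLC7A11, the cystine carrier, had 4.41 and 3.85 against 9.98 and 10.2 CPM, a change of 1.29 ± 0.31 (adjusted p = 0.775). ATF4 itself had 213.7 and 220.5 against 339 and 269.8 CPM in total RNA, and 1001 and 999.2 against 1317 and 1361 in polysomal RNA. All 3 had both knockdown libraries above both scramble libraries in total RNA, as PCK2 (gluconeogenic enzyme of mitochondria) did with 14.8 and 15.2 against 23.5 and 20.6 CPM and a change of 0.55, and none passed the threshold.

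In polysomal RNA the same list had 15 genes above and 15 below 0, with a median of -0.01, and without ATF4 and ASNS 14 and 14, with the same median to that precision. GPT2, which makes glutamate and pyruvate from alanine, had 42.0 and 40.9 CPM in scramble and 65.9 and 51.3 in knockdown polysomal RNA (0.50 ± 0.16, edgeR adjusted p = 0.247). SLC7A1, a carrier of basic amino acids, had 24.8 and 18.9 against 16.7 and 15.4 CPM (-0.45 ± 0.18, adjusted p = 0.334), and CHAC1 52.3 and 40.8 against 38.8 and 40.7 CPM. The first had both knockdown libraries higher and the other 2 both lower. In the polysome-to-total ratio 27 of 30 lay below 0, with a median of -0.37, and 25 of 28 without ATF4 and ASNS, with a median of -0.37. Unadjusted p under 0.05 by edgeR was found for 2 higher and 2 lower in polysomal RNA (5.37% and 7.89% of all genes) and for 8 lower in the ratio (4.33%), and 0 were called by edgeR or DESeq2. The ratio of CHAC1 changed by -1.15 ± 0.29 (edgeR adjusted p = 0.776), that of SLC7A5, a carrier of large neutral amino acids, by -0.69 and that of PCK2 by -0.65. SLC7A5 had 149.9 and 149.2 CPM in scramble and 195.7 and 191.8 in knockdown total RNA, against 90.8 and 113.8 and then 73.2 and 91.2 in polysomal RNA. Without the first scramble polysome library 21 of 30 lay below 0 with a median of -0.17, and without the second 29 with a median of -0.48. Of the synthetases known as ATF4 targets 10 of 12 lay below 0 in the ratio, with a median of -0.21, and of the members with a CARE match 6 of 7, also with a median of -0.21. Comparisons in total RNA and in the ratio share the total libraries, so a value above 0 in the first tends to go with a value below 0 in the second.

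**Figure D5:**
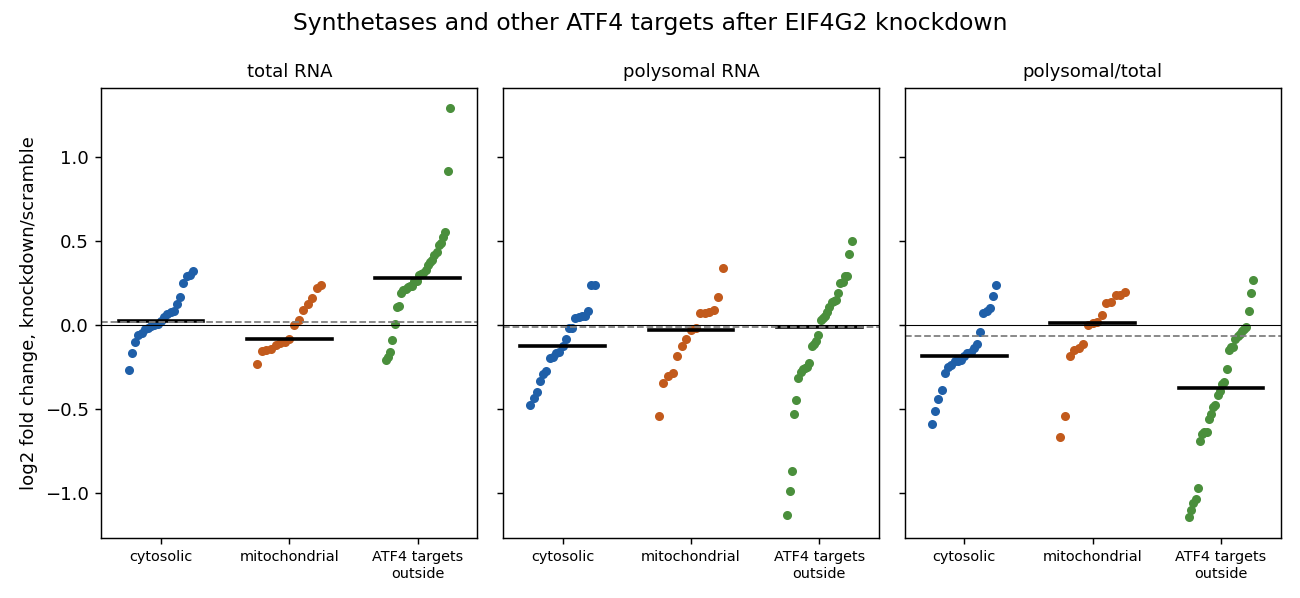
Log2 fold change of knockdown against scramble in total RNA, polysomal RNA and the polysome-to-total ratio for the 21 cytosolic members, the 15 mitochondrial members and the list of 30 genes, ATF4 and its targets outside the family, each gene a point, with medians as black bars and the median of all tested genes dashed. In total RNA the medians are 0.02, -0.09 and 0.28, and in the ratio -0.18, 0.01 and -0.37. Neither is corrected for transcript length.

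Genes that work beside the synthetases showed no call either. Of 14 other genes of tRNA charging, editing and recycling, 10 lay above 0 in total RNA with a median of 0.03, 7 in polysomal RNA with a median of -0.01, and 5 in the ratio with a median of -0.04, and 0 were called by edgeR or DESeq2 in any of them (unadjusted p under 0.05 by edgeR for 0, 2 and 1, against 3.68%, 13.3% and 6.27% of all tested genes). TARS3, another cytosolic threonyl enzyme, had 17.4 and 19.2 CPM in scramble and 13.8 and 14.6 in knockdown total RNA (-0.36 ± 0.19, edgeR adjusted p = 1), and DTD1, which removes D-amino acids from tRNA, stood at 0.28. AARSD1, which edits mischarged alanyl-tRNA, had 1 and 7 counts in scramble and none in knockdown polysomal RNA, too few to give a fold. Of 9 tested genes listed as partners of translation elongation, 5 lay above 0 in total RNA with a median of 0.11. By edgeR or DESeq2 0 were called, and 0 had an unadjusted p under 0.05 by edgeR, in any knockdown comparison. The 9 include TSFM and EEF1D, which had only 0 to 22 and 13 to 95 counts per library. EIF5A, which helps ribosomes through proline stretches, had 508.3 and 496.6 CPM in scramble and 716.5 and 540.2 in knockdown total RNA (0.32). The mitochondrial translation factors GFM1 and GFM2 stood at -0.30 and -0.31 in total and -0.28 and -0.26 in polysomal RNA. Both knockdown libraries lay below both scramble libraries each time. EEF2, the cytosolic translocase, had 2220 and 1712 CPM in scramble and 3609 and 2042 in knockdown polysomal RNA, with overlap, and stood at 0.52 ± 0.26 (adjusted p = 0.414) in polysomal RNA.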

How the data were processed

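Gene counts in 8 libraries of IHCF cells (4 groups of 2) came as 1 raw count table, deposited by the authors. Per the submitters' processing notes, reads were handled with bcl2fastq 2.19.0, Trimmomatic 0.36, HISAT2 2.1.0 and featureCounts of Subread 2.0.1 on GRCh38. Strand and multi-mapping settings are not given in the sources used here, so near copies and overlapping genes share an uncertain count. The depth per library sets the precision of low genes.

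Here, edgeR 4.0.16 (R 4.3.3, limma 3.58.1) fitted all 8 libraries together with filterByExpr, TMM scaling, a robust quasi-likelihood fit and Benjamini-Hochberg adjustment over 16228 genes at 0.05. SE is the log2 fold change over the root of F. DESeq2 1.42.0 was an alternative, beside other scalings, filters, a replicate block and leaving out each library. CPM uses TMM-scaled library sizes. Coding and transcript lengths are those of the longest coding model in GENCODE 29, in place of RefSeq protein lengths. The length trend is a loess fit with span 0.5, added after seeing the data. The fit was also run on simulated counts with less spread between libraries than these data, which checks the code and not the power here.

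The members and gene lists were chosen with earlier results of these data known. Library values are given for EIF4G2 and for the members of each class with the smallest edgeR p in each knockdown comparison, some as ranges. They are also given for the members of each class with the highest and lowest fold changes between fractions in scramble cells. From the related lists, genes were taken by the smallest edgeR p in each knockdown comparison, some with the fold change only. Other genes were named after their values were seen, and 1 gene of the charging list is not reported here. Same-numbered replicates did not deviate together (correlations of -0.092 to 0.026), so the numbers pair no samples.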

Additional observations from a re-analysis of the deposited data

How the results depend on the processing

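Counts of members called in either direction stayed within 1.5 times under every alternative tried for the 5 comparisons, but by direction they did not with library totals only: 2 higher and 18 lower in scramble cells (19 and 8 after TMM scaling), 2 and 25 in knockdown cells (16 and 7). Leaving out 1 library each gave 14 to 20 higher and 6 to 9 lower in scramble and 13 to 16 and 6 to 10 in knockdown cells. With library totals only, the median log2 fold change of polysomal against total RNA turned to -0.27 (cytosolic) and -0.50 (mitochondrial) in scramble and -0.67 and -0.97 in knockdown cells, and members called higher after TMM scaling turned below 0: in scramble cells CARS2 (-0.37), FARSB (-0.27), GARS1 (-0.14), MARS1 (-0.23), NARS2 (-0.38), PARS2 (-0.027), QARS1 (-0.49), RARS2 (-0.43), TARS1 (-0.14), WARS2 (-0.14) and YARS1 (-0.41), in knockdown cells AIMP1 (-0.11), FARSA (-0.27), GARS1 (-0.43), MARS1 (-0.51), QARS1 (-0.47), RARS2 (-0.48), TARS1 (-0.37), WARS1 (-0.67) and WARS2 (-0.0017). That scaling also moved the cytosolic median of knockdown against scramble in polysomal RNA to -0.23, as it lowers every polysomal value. With the length trend removed, the cytosolic medians were 0.69 in scramble and 0.66 in knockdown cells and -0.030 for knockdown against scramble in polysomal RNA, the mitochondrial median in scramble cells was 0.021, and the medians in the ratio were -0.036 (cytosolic) and 0.19 (mitochondrial). The cytosolic median in scramble cells was 0.68 with RLE scaling and with DESeq2, 0.51 without a filter, 0.59 without KARS1 and GARS1 and 0.55 without the scaffolds, and the mitochondrial one 0.35 without a filter. Leaving out 1 library each gave ranges of 0.54 to 0.73 and 0.26 to 0.56 for these medians in scramble cells, -0.18 to 0.23 for the mitochondrial median in knockdown cells and -0.27 to -0.10 for the cytosolic median of knockdown against scramble in polysomal RNA. HARS2 in polysomal RNA ran from -0.63 to 0.035 and WARS2 in the ratio from -0.0023 to 0.37. The causes were not tested. The replicate block moved no call of members (27 and 23 between fractions, 0 elsewhere; cytosolic median 0.73 in scramble cells). With 2 libraries a group, 34 of 36 intervals in polysomal RNA lay within a 2-fold change, and smaller differences were not detectable for the low genes.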
